A study of Mus musculus with 4 samples.

Results

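Nuclear receptors are transcription factors that carry a zinc finger DNA-binding domain and, in most members, a pocket for a small lipophilic ligand such as a steroid, retinoid, oxysterol or fatty acid. Many of them bind DNA as a heterodimer with a retinoid X receptor, recruit corepressors without ligand and exchange them for coactivators when ligand binds. In macrophages they are known for linking lipid uptake, clearance of dead cells and hormone signals to gene expression, and the NR4A orphan receptors are known as immediate early genes of activated cells.

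The 44 genes of this family were the rows of the deposited transcript table whose gene column held one of 44 nuclear receptor symbols, and the FPKM values of their 89 transcripts were summed by symbol (FPKM, sequenced fragments per transcript length and mapped total). They stand among 24358 genes and 34535 transcripts in all. CD301b macrophages, which bear the C-type lectin CD301b, were set against immune cells that lacked F4/80, a classical macrophage surface marker in the mouse. Both were sorted by flow cytometry from the dermis of wound beds at day 5, from male C57/Bl6 mice 7 weeks old, with no transgene or treatment named in the labels. Each population was represented by 2 libraries, and the labels do not say whether these came from separate animals. The table gives 1 FPKM value per transcript and population, so no spread between libraries and no depth can be given, and every FPKM below is the authors' value for a population. Significance rests on Cuffdiff results in the authors' deposited table, whose p-values were adjusted by the Benjamini-Hochberg method over all 16921 tested transcripts and held to a threshold of 0.05. The adjusted p of a gene is the smallest among its transcripts, so it is no test of the summed FPKM where a gene has several. No CD301b-negative macrophage population was included, so traits of the CD301b subset and of wound macrophages in general cannot be told apart.

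The sort left both populations mixed in their transcripts. Adgre1, which encodes F4/80, was 557 FPKM in CD301b macrophages and 151 FPKM in F4/80-negative cells, while Mgl2, which encodes CD301b, was 49.2 FPKM in CD301b macrophages and 103 FPKM in F4/80-negative cells. All 14 macrophage markers examined, which include the sort gene Adgre1, were higher in CD301b macrophages, with a summed level of 18298 FPKM against 8279 FPKM. Dendritic and Langerhans cell markers went the other way, 10 of 12 being lower, with a summed level of 76.4 FPKM in CD301b macrophages and 336 FPKM in F4/80-negative cells, and 6 of 10 mast cell and basophil markers were lower, with sums of 21.2 FPKM in CD301b macrophages and 59.6 FPKM in F4/80-negative cells. Fibroblast markers summed to 5452 FPKM in CD301b macrophages and 8040 FPKM in F4/80-negative cells, with 2 of 10 lower. Neutrophil markers gave 1 higher and 3 lower of 9 (sums of 2188 FPKM in CD301b macrophages and 3927 FPKM in F4/80-negative cells), and T cell, natural killer cell, B cell, keratinocyte and endothelial lists gave at most 1 call each. No marker measured was at 0 in either population. Each difference below is between mixtures, in which fewer cells of a type and less RNA per cell cannot be told apart, and the part that cell makeup plays in the receptor results was not tested.

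Of the 44 receptors, 24 reached 1 FPKM in at least 1 population and 25 had a transcript that was tested. Rxra, Nr1h3, Nr3c1 and Nr2c1 were higher in CD301b macrophages, and Nr4a2, Nr4a3 and Vdr were lower. The 4 higher genes are 16.0% of the 25 tested, beside 11.0% of all 13039 genes tested. The 3 lower genes are 12.0%, beside 6.20% of all genes tested in that direction. Both directions together gave 7 of the 25, beside 17.2% of all genes tested. With 25 tested members these shares rest on few genes, and no enrichment of the family is read from them. The 24 receptors at 1 FPKM or more divided evenly, with 12 above and 12 below in CD301b macrophages. Over all 13039 genes tested, 7216 lay above and 5823 below. The median log2 fold of all 44, on the log2(FPKM + 1) scale that understates the change of low genes, was -0.0028. Over all genes in the table it was 0. Over the genes tested it was 0.05, but that set is unlike the 44, of which 19 were not tested.

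**Figure D1:**
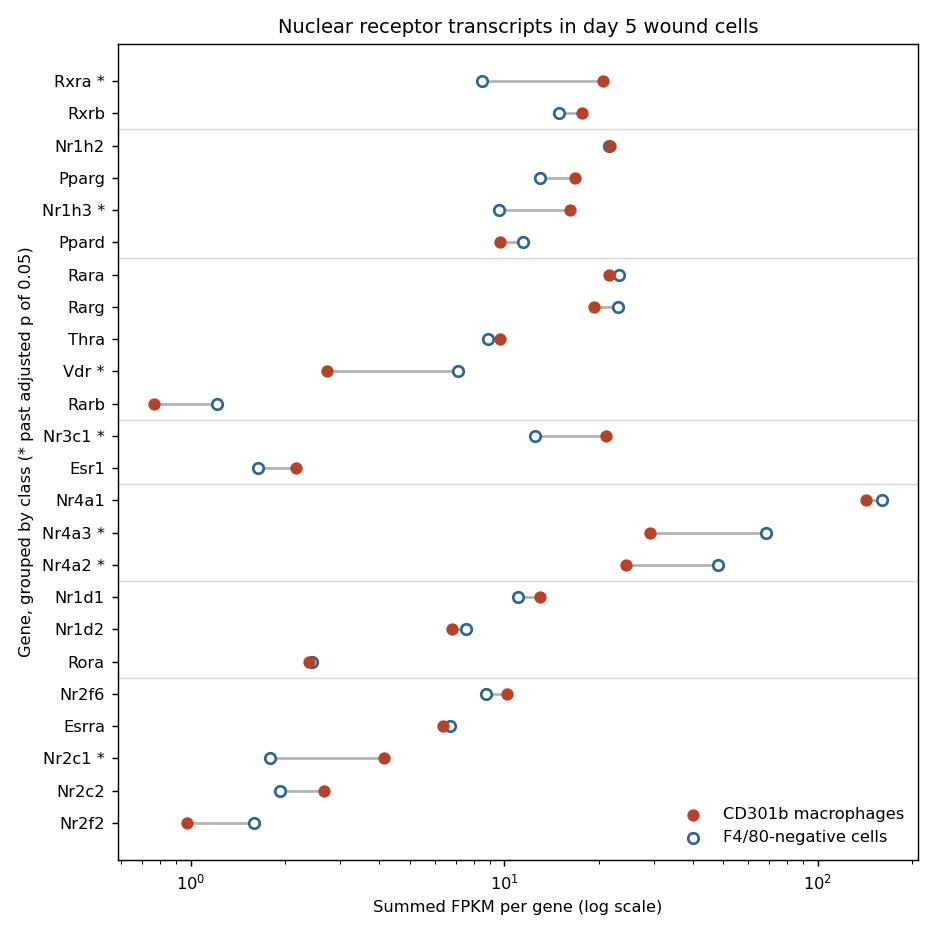
Summed FPKM (log axis) of the 24 nuclear receptor genes at 1 FPKM or more in at least 1 population, grouped by class. Filled points are CD301b macrophages and open points F4/80-negative cells, each a single value per population without error, and an asterisk marks the 7 genes past an adjusted p of 0.05. Nr4a1 lies highest in both populations, at 143 FPKM in CD301b macrophages and 160 FPKM in F4/80-negative cells, and the widest separations are those of Rxra, Nr2c1, Vdr and Nr4a3.

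The family is defined by its paired zinc fingers. The coding sequence of the first finger is shown for the called receptors other than Nr3c1, and for Nr4a1 as the uncalled relative of Nr4a2 and Nr4a3, because it is the part that reads the DNA site. Capitals mark the codons from the third zinc-binding cysteine onward, which hold the recognition residues known as the P box. The sequences are mRNA strand, read from GENCODE transcripts of GRCm38, and run from the first cysteine codon for 69 bases.
Rxra: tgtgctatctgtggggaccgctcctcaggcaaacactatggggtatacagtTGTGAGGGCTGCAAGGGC
Nr1h3: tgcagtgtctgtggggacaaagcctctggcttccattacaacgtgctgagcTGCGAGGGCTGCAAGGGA
Vdr: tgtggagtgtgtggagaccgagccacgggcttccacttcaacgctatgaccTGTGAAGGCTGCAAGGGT
Nr2c1: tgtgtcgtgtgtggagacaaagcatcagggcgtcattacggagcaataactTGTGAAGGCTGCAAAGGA
Nr4a1: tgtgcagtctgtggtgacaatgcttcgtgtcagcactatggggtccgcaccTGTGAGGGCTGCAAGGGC
Nr4a2: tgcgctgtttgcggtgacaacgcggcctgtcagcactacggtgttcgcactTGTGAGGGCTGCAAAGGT
Nr4a3: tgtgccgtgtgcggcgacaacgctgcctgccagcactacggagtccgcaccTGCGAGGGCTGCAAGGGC
The 18 capital bases of Rxra and Nr4a1 are identical, and those of Nr4a2 and Nr4a3 differ at 3. Read as codons, the capitals of every sequence shown encode the same amino acids. The base differences among them are therefore synonymous and mark no difference in the recognition residues. Over the 168 bases of the whole domain, the NR4A receptors shared 75.6% to 83.9% of bases with one another, against 44.6% to 73.8% for all other pairs of the 8 genes compared (Nr3c1 included). None of the 7 called receptors had a 50-base word in its GENCODE transcripts that also occurs in another of the 44, so their reads can be told apart from those of other members at that length. Among all 44, only Nr2f1 and Nr2f2 shared such words, 0.205% and 0.204% of theirs.

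The retinoid X receptors are the common partners with which LXR, PPAR, retinoic acid, thyroid hormone and vitamin D receptors bind DNA. Rxra (NCBI gene 20181, chr2:27676445-27763319, GRCm38) was 20.7 FPKM in CD301b macrophages and 8.48 FPKM in F4/80-negative cells, 2.44-fold higher. Its adjusted p was 0.000999 by Cuffdiff in the authors' deposited table, the smallest value that table allows. Its partner gene Rxrb was 17.7 FPKM in CD301b macrophages and 14.9 FPKM in F4/80-negative cells and was not past the threshold, with an adjusted p of 0.717 by Cuffdiff in the authors' deposited table. Rxrg stayed at 0.0640 and 0.137 FPKM and was not tested. The order of the pair differed between populations: Rxra was 53.8% of summed retinoid X receptor FPKM in CD301b macrophages and 36.0% in F4/80-negative cells, a description for which no test could be made. The summed level of the class was 38.4 FPKM in CD301b macrophages and 23.6 FPKM in F4/80-negative cells.

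Almost all of the Rxra signal came from 1 transcript, NM_001290481, at 20.4 FPKM in CD301b macrophages and 8.07 FPKM in F4/80-negative cells. This was 98.6% of the gene in CD301b macrophages and 95.2% in F4/80-negative cells. The transcript that starts at the upstream end of the gene, NM_011305, was 0.220 FPKM in CD301b macrophages and 0.340 FPKM in F4/80-negative cells. In GENCODE the abundant transcript starts inside the gene, at position 27709292 on the plus strand of chromosome 2, and the upstream one at 27677201. How Cuffdiff divides reads between transcripts that share exons limits such shares. The 250 bases before the internal start (RefSeq, GRCm38.p6, chr2:27709042-27709291, plus strand) are shown because the difference in Rxra rests on this transcript, and capitals mark AAAGGTCA, the NBRE to which NR4A receptors are known to bind as monomers.
Rxra internal promoter: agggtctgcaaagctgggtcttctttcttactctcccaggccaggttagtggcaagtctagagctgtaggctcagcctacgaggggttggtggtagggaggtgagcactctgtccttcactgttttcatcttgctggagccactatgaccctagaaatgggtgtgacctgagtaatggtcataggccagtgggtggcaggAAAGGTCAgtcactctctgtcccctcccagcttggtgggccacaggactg
AAAGGTCA or its reverse TGACCTTT, searched on both strands, occurs in 1.34% of 32851 promoter windows of the same length. The shorter nuclear receptor half-site AGGTCA, or TGACCT on the other strand, occurs here 48 and 87 bases before the start and in 14.0% of all windows. The match 48 bases before the start lies within the NBRE. Among the members, the NBRE also occurs in a window of Rxrg, which was not tested. These windows were searched after the expression values were known, and a match is a description of letters, not of binding.

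Among the lipid sensors, Nr1h3, the oxysterol receptor LXR-alpha (NCBI gene 22259, chr2:91184061-91202829), was 16.2 FPKM in CD301b macrophages and 9.62 FPKM in F4/80-negative cells. The difference was 1.68-fold, with an adjusted p of 0.0262 by Cuffdiff in the authors' deposited table. Its main transcript NM_001177730 carried 96.7% of the gene in CD301b macrophages and 96.5% in F4/80-negative cells. Nr1h2, the more widely expressed LXR-beta, was nearly level by sum, at 21.7 FPKM in CD301b macrophages and 21.6 FPKM in F4/80-negative cells. The LXR pair together reached 37.9 FPKM in CD301b macrophages and 31.2 FPKM in F4/80-negative cells. Nr1h3 was 0.744 times the level of Nr1h2 in CD301b macrophages and 0.445 times in F4/80-negative cells.

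The level sum of Nr1h2 covered transcripts of unlike distribution. NM_001285518 was 0.0241 FPKM in CD301b macrophages and 8.83 FPKM in F4/80-negative cells, a 366-fold difference in estimated level. NM_001285519 went the other way, at 8.25 FPKM in CD301b macrophages and 2.42 FPKM in F4/80-negative cells. The third, NM_001285517, was 13.5 FPKM in CD301b macrophages and 10.4 FPKM in F4/80-negative cells. None was past the threshold, with adjusted p-values of 0.442, 0.420 and 0.378 by Cuffdiff in the authors' deposited table. GENCODE assigns NM_001285518 and NM_001285519 to the same transcript model, and how reads were divided between them was not tested.

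Pparg, the fatty acid receptor of adipocytes and alternatively activated macrophages, was 16.8 FPKM in CD301b macrophages and 12.99 FPKM in F4/80-negative cells and was not past the threshold. Its smallest adjusted p, 0.0958 by Cuffdiff in the authors' deposited table, belonged to the minor transcript NM_001127330 (0.931 against 0.335 FPKM). The main Pparg transcript, NM_001308354, was 15.2 FPKM in CD301b macrophages and 11.3 FPKM in F4/80-negative cells, and NM_011146, the transcript of the adipocyte isoform PPAR-gamma2, was 0.0813 FPKM in CD301b macrophages and 0.125 FPKM in F4/80-negative cells. Ppard, a fatty acid receptor of wide expression, was 9.72 FPKM in CD301b macrophages and 11.5 FPKM in F4/80-negative cells and was not past the threshold. Ppara, the fasting receptor of liver, stayed at 0.0826 FPKM in CD301b macrophages and 0.0495 FPKM in F4/80-negative cells. Nr1h4, the bile acid receptor, and the xenobiotic receptors Nr1i2 and Nr1i3 were all under 1 FPKM in both populations.

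**Figure D2:**
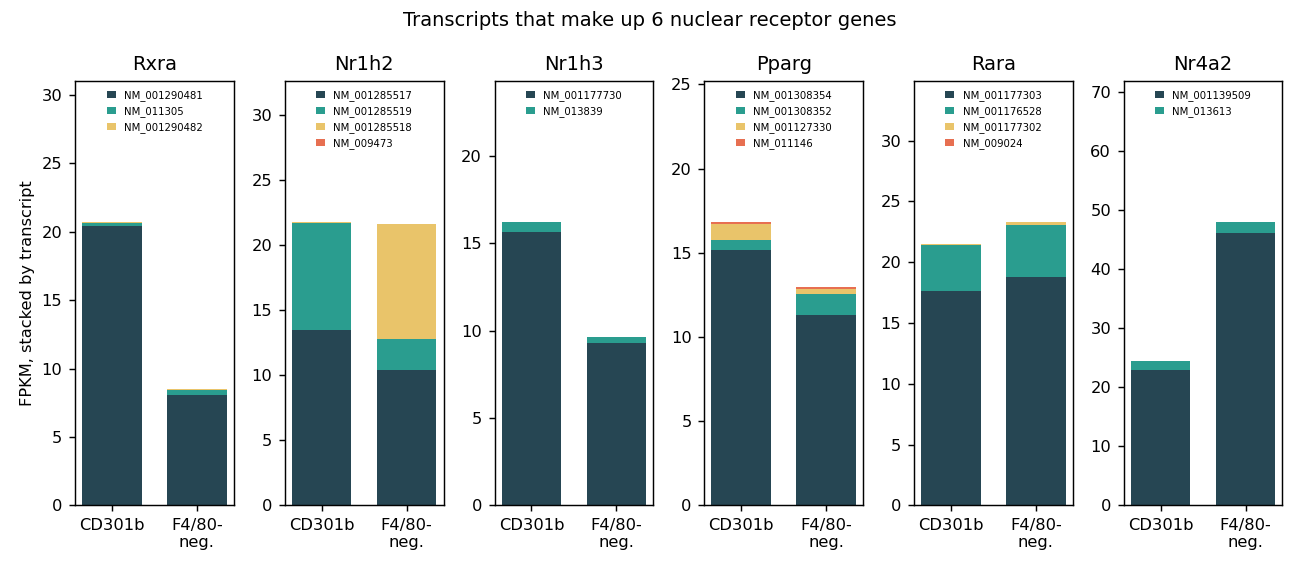
FPKM of each transcript, stacked, for 6 nuclear receptor genes, with CD301b macrophages on the left of each panel and F4/80-negative cells on the right. Each segment is 1 value per population without error. A single transcript makes up over 95% of Rxra and Nr1h3 in both populations, and NM_001285517 leads Nr1h2 in both, with 61.9% in CD301b macrophages and 48.0% in F4/80-negative cells.

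The hormone and vitamin receptors that pair with retinoid X receptors gave 1 call among 5 tested, in the lower direction. This is 20%, beside 6.20% of all genes tested, and with 5 tested members no enrichment is read from it. Vdr, the vitamin D receptor (NCBI gene 22337, chr15:97854427-97908296), was 2.71 FPKM in CD301b macrophages and 7.10 FPKM in F4/80-negative cells. It was 2.62-fold lower in CD301b macrophages, with an adjusted p of 0.000999 by Cuffdiff in the authors' deposited table. Set beside their partner, Rxra was 7.63 times the level of Vdr in CD301b macrophages and 1.19 times in F4/80-negative cells. All dendritic, mast cell, fibroblast, keratinocyte and endothelial markers measured lay below in CD301b macrophages, as Vdr did, and all 14 macrophage markers lay above. The remaining marker lists held genes on both sides. The part of these cell types in the level of Vdr was not tested.

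The retinoic acid receptors were among the more abundant members and were not past the threshold. Rara was 21.5 FPKM in CD301b macrophages and 23.3 FPKM in F4/80-negative cells, and Rarg was 19.4 FPKM in CD301b macrophages and 23.0 FPKM in F4/80-negative cells. Rarb, itself a retinoic acid target gene, was 0.763 FPKM in CD301b macrophages and 1.21 FPKM in F4/80-negative cells. Its leading transcript differed between populations, NM_011243 with 70.2% of the gene in CD301b macrophages and NM_001289762 with 58.1% in F4/80-negative cells, and neither passed the threshold. By exons 34.1% of Rarb overlaps Top2b on the opposite strand, and without a stated strand setting the reads of the overlap cannot be told apart. Thra, the thyroid hormone receptor alpha, was 9.72 FPKM in CD301b macrophages and 8.86 FPKM in F4/80-negative cells, while Thrb stayed at 0.213 and 0.286 FPKM.

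Among the steroid receptors Nr3c1, the glucocorticoid receptor on chromosome 18 (NCBI gene 14815), was 21.1 FPKM in CD301b macrophages and 12.6 FPKM in F4/80-negative cells. The difference was 1.68-fold, with an adjusted p of 0.00624 by Cuffdiff in the authors' deposited table. Esr1, oestrogen receptor alpha, was 2.16 FPKM in CD301b macrophages and 1.64 FPKM in F4/80-negative cells and was not past the threshold. The signal of Esr1 was spread over 5 transcripts, of which none exceeded 1 FPKM in either population. The mineralocorticoid receptor Nr3c2, oestrogen receptor beta Esr2 and the progesterone receptor Pgr were at most 0.175 FPKM in either population and were not tested. Nr3c1 was thus the only steroid receptor above 5 FPKM in these cells.

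The NR4A receptors Nr4a1 (Nur77), Nr4a2 (Nurr1) and Nr4a3 (Nor1) hold no ligand in their pocket and are induced within minutes by many stimuli. They made up 46.2% of all nuclear receptor FPKM in CD301b macrophages and 57.9% in F4/80-negative cells, and were the 3 highest members in both. Nr4a3 (NCBI gene 18124, chr4:48045078-48086447) was 29.2 FPKM in CD301b macrophages and 68.2 FPKM in F4/80-negative cells, 2.34-fold lower. Nr4a2 (NCBI gene 18227, chr2:57106830-57124003) was 24.4 FPKM in CD301b macrophages and 47.9 FPKM in F4/80-negative cells, 1.96-fold lower. Both had an adjusted p of 0.000999 by Cuffdiff in the authors' deposited table. Nr4a1, the most abundant member, was 143 FPKM in CD301b macrophages and 160 FPKM in F4/80-negative cells and was not past the threshold, with an adjusted p of 0.606 by Cuffdiff in the authors' deposited table. The level of Nr4a1 was 4.89 times that of Nr4a3 in CD301b macrophages and 2.35 times in F4/80-negative cells, and no test of this difference between the genes could be made from the table.

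The lower level of Nr4a2 lay in transcript NM_001139509, at 22.9 FPKM in CD301b macrophages and 46.2 FPKM in F4/80-negative cells. The shorter NM_013613, which starts inside the gene, was 1.57 FPKM in CD301b macrophages and 1.78 FPKM in F4/80-negative cells and was not past the threshold. Without the NR4A genes the family summed to 228 FPKM in CD301b macrophages and 201 FPKM in F4/80-negative cells, beside 425 FPKM in CD301b macrophages and 478 FPKM in F4/80-negative cells with them.

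The 250 bases before a transcript start of each NR4A gene (RefSeq, GRCm38.p6) are shown because CREB, the cAMP-responsive factor, is known to act on these genes. Capitals mark TGACG or its reverse CGTCA, the half-site of the cAMP response element, searched on both strands. The windows are chr15:101266596-101266845 on the plus strand for Nr4a1, chr2:57124004-57124253 on the minus strand for Nr4a2 and chr4:48045055-48045304 on the plus strand for Nr4a3. Those of Nr4a1 and Nr4a3 precede starts that lie inside the gene as RefSeq bounds it, and in GENCODE the transcript NM_015743 of Nr4a3 starts within its window, at 48045153.
Nr4a1: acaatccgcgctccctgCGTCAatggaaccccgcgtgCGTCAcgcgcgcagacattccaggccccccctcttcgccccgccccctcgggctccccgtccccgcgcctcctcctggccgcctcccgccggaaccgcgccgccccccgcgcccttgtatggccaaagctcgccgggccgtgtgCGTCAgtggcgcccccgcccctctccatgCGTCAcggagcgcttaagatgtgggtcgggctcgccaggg
Nr4a2: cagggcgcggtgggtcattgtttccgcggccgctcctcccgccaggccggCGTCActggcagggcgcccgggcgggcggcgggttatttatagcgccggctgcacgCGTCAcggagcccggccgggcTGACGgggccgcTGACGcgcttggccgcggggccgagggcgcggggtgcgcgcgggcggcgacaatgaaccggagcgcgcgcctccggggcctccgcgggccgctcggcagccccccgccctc
Nr4a3: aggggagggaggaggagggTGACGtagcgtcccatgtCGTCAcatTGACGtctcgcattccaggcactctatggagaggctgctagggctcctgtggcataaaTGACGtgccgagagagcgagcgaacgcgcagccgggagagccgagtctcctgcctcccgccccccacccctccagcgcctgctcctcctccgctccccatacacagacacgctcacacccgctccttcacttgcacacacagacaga
Each window holds 4 half-sites. Of all 32851 promoter windows of this length, 17.8% hold at least 1 and 0.137% hold 4 or more. The full palindrome TGACGTCA is in none of the 3 windows and in 1.55% of all. In the Nr4a3 window, the half-site 147 bases before the RefSeq start lies downstream of the GENCODE start of NM_015743. Whether the half-sites bear on the levels of these genes was not tested.

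**Figure D3:**
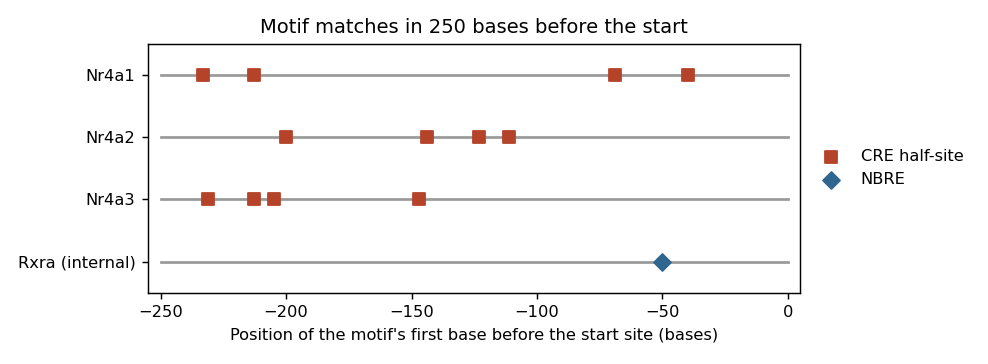
Matches to the half-site of the cAMP response element (squares) in the 250 bases before the start of Nr4a1, Nr4a2 and Nr4a3, and to the NBRE (diamond) before the internal start of Rxra, with the distance from the start in bases on the horizontal axis. Each NR4A window holds 4 half-sites. Distances are from the RefSeq start of the window, which for Nr4a3 lies downstream of the GENCODE start of its transcript NM_015743.

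Other immediate early genes were examined beside the NR4A receptors. Of 16, 4 (25%, beside 11.0% of all genes tested) were higher and none was lower (beside 6.20%) by the Cuffdiff p-values. At an adjusted p of at most 0.01 the calls were 2, and none of the 16 had a transcript lower at an unadjusted p below 0.05. Their median log2 fold was 0.21, beside 0.05 over all genes tested. Egr1, a zinc finger factor of growth signals, was 263 FPKM in CD301b macrophages and 140 FPKM in F4/80-negative cells, and the AP-1 subunits Jun (120 against 72.8 FPKM) and Fos (815 against 512 FPKM) were also higher. Dusp1, a phosphatase that shuts off MAP kinases, was the remaining one, at 855 against 562 FPKM. The most abundant members not past the threshold were Zfp36 (1110 against 747 FPKM), Atf3 (411 against 290 FPKM) and Ier3 (281 against 243 FPKM).

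The circadian receptors did not pass the threshold in any of 3 tested members, and none had a Cuffdiff p below 0.05 before adjustment. Nr1d1 (REV-ERB-alpha), a repressor of the clock, was 12.998 FPKM in CD301b macrophages and 11.1 FPKM in F4/80-negative cells, and its relative Nr1d2 was 6.80 FPKM in CD301b macrophages and 7.58 FPKM in F4/80-negative cells. Rora, an activator at the same DNA elements, was 2.38 FPKM in CD301b macrophages and 2.45 FPKM in F4/80-negative cells. Rorb was under 0.1 FPKM in both. Nr1d1 and Thra overlap tail to tail on opposite strands, sharing 8.55% of the exon bases of Nr1d1.

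Of 14 clock genes tested outside the family, 2 were higher and 2 lower (14.3% each, beside 11.0% and 6.20% of all genes tested), and the other 10 were not called. The median log2 fold of all 15 listed, 1 of them not tested, was 0.13, and at an adjusted p of at most 0.01 the calls were 2. Arntl, which encodes the clock activator BMAL1, was 12.3 FPKM in CD301b macrophages and 8.05 FPKM in F4/80-negative cells, and its partner Clock was 7.03 FPKM in CD301b macrophages and 4.58 FPKM in F4/80-negative cells. The repressors Bhlhe40 (63.5 against 111.95 FPKM) and Cry2 (3.51 against 5.79 FPKM) were lower. Nfil3, Per1 and Cry1 were not past the threshold, at 97.5 against 102 FPKM, 25.1 against 25.6 FPKM and 7.10 against 10.4 FPKM.

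Of the remaining orphan receptors 1 of 6 tested was called (16.7%, beside 17.2% of all genes tested). Nr2c1, the testicular receptor TR2 (NCBI gene 22025, chr10:94147542-94197216), was 4.14 FPKM in CD301b macrophages and 1.78 FPKM in F4/80-negative cells, a 2.32-fold difference with an adjusted p of 0.000999 by Cuffdiff in the authors' deposited table. Its paralog and partner Nr2c2, TR4, was 2.66 FPKM in CD301b macrophages and 1.93 FPKM in F4/80-negative cells and was not past the threshold, with an adjusted p of 0.266 by Cuffdiff in the authors' deposited table. By exons 30.7% of Nr2c2 overlaps Mrps25 on the opposite strand. Esrra, a regulator of mitochondrial genes, was 6.40 FPKM in CD301b macrophages and 6.70 FPKM in F4/80-negative cells. Nr2f6 was 10.2 FPKM in CD301b macrophages and 8.76 FPKM in F4/80-negative cells, with 54.4% of its exon bases overlapping Ocel1 on the opposite strand. The COUP factors Nr2f2 (0.971 against 1.59 FPKM) and Nr2f1 (0.290 against 0.695 FPKM) were not past the threshold, with adjusted p-values of 0.0808 and 0.107 by Cuffdiff in the authors' deposited table. Both are transcription factors of mesenchymal and endothelial cells. All 10 fibroblast and all 6 endothelial markers were also below in CD301b macrophages, with 2 and 0 of them past the threshold. Their part in the levels of Nr2f1 and Nr2f2 was not tested.

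In all, 20 receptors were under 1 FPKM in both populations, the highest being Nr2f1, and 19 of the 44 were not tested. Hnf4a, Esrrb, Nr5a1, Nr2e3 and Nr1i2, which serve liver, stem cells, steroid-making glands, photoreceptors and drug metabolism, were listed at 0 in both populations. Nr6a1, Nr5a2, Nr2e1, Esrrg and Hnf4g lay at or below 0.446 FPKM. The 17 uncalled members at 1 FPKM or more differed by a ratio of 0.612 (Nr2f2) to 1.38 (Nr2c2) of CD301b macrophages over F4/80-negative cells.

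**Figure D4:**
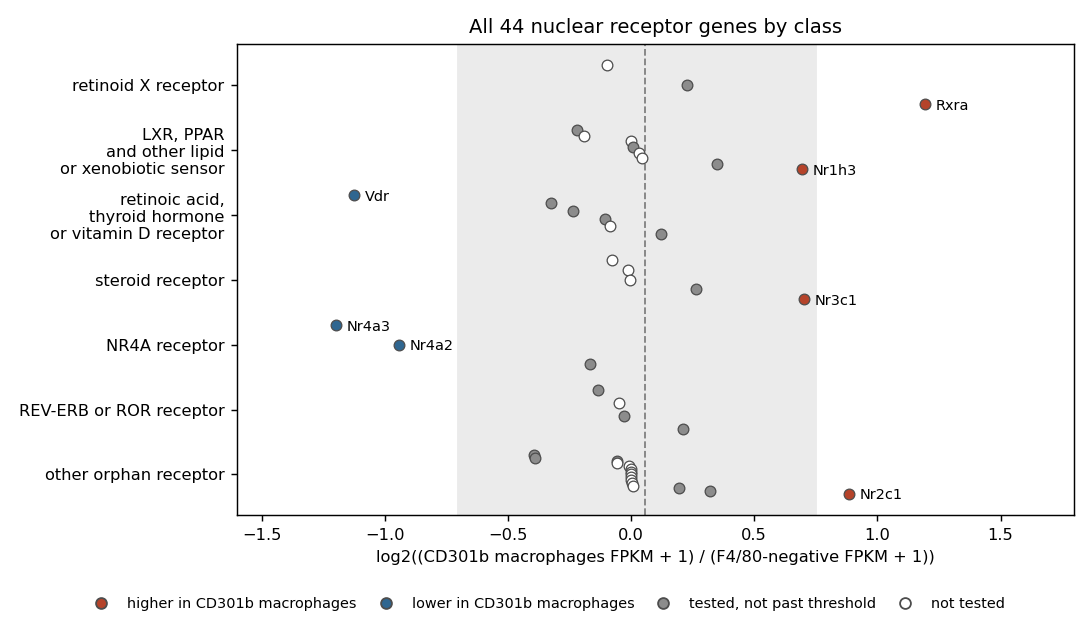
Log2 fold, on the log2(FPKM + 1) scale, of CD301b macrophages over F4/80-negative cells for all 44 nuclear receptor genes by class. The grey band holds the middle 90% of all genes tested (-0.70 to 0.75) and the dashed line is their median of 0.05. Rxra at 1.19 and Nr2c1 at 0.89 lie above the band and Nr4a3 at -1.20, Vdr at -1.13 and Nr4a2 at -0.94 below it, while Nr1h3 and Nr3c1 are called inside it.

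Coregulators, the corepressors and coactivators through which receptors act, were higher in 6 of 19 tested cases (31.6%, beside 11.0% of all genes tested) and lower in none (beside 6.20%). At an adjusted p of at most 0.01 the calls were 2. The median log2 fold of all 20 listed, 1 of them not tested, was 0.31, beside 0.05 over all genes tested. Of the 20, 19 lay above in CD301b macrophages, beside 7216 of all 13039 genes tested. None had a transcript lower at a Cuffdiff p below 0.05 before adjustment. Ncoa4, a coactivator that also delivers ferritin to lysosomes, was 91.7 FPKM in CD301b macrophages and 43.6 FPKM in F4/80-negative cells. The acetyltransferase Ep300 was 14.5 FPKM in CD301b macrophages and 7.92 FPKM in F4/80-negative cells, and the coactivator Ncoa3 was 20.95 FPKM in CD301b macrophages and 13.9 FPKM in F4/80-negative cells. On the corepressor side Tbl1x (19.95 against 11.9 FPKM) and Ncor1 (16.0 against 11.6 FPKM) were higher. Hdac3, Gps2 and Med1, the most abundant uncalled members, were 22.8 against 21.0 FPKM, 22.8 against 20.0 FPKM and 11.8 against 9.34 FPKM.

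Genes known as LXR targets were higher in 7 of 16 cases (43.8%, beside 11.0% of all genes tested) and lower in none (beside 6.20%), with a median log2 fold of 0.32 and no transcript lower at a Cuffdiff p below 0.05 before adjustment. Cd5l, a secreted scavenger protein, was 15.4 FPKM in CD301b macrophages against 3.499 FPKM in F4/80-negative cells. The lipid carriers Apoe (7115 against 2217 FPKM) and Pltp (810 against 261 FPKM) were 3.21-fold and 3.10-fold higher. The cholesterol exporter Abca1 was 128 FPKM in CD301b macrophages and 56.2 FPKM in F4/80-negative cells, and Mylip, which targets the LDL receptor for degradation, was 57.7 against 33.3 FPKM. Smpdl3a, a phosphodiesterase, was 151 against 89.5 FPKM. Other targets were not past the threshold, among them the exporter Abcg1 (30.3 against 23.9 FPKM), the lipogenic factor Srebf1 (7.98 against 7.39 FPKM), Lpl (126 against 101 FPKM), Arl4c (90.2 against 90.4 FPKM) and Apoc2 (51.4 against 41.4 FPKM). Apoe, Pltp and Cd5l are also macrophage genes, and the macrophage markers were higher in the same direction, and their part in these counts was not tested.

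Of 19 PPAR target genes, 2 were higher (10.5%, beside 11.0% of all genes tested) and 1 was lower (5.26%, beside 6.20%), shares near those of all genes, with a median log2 fold of 0.21. At an adjusted p of at most 0.01 there was 1 call. The fatty acid importer Cd36 was 143 FPKM in CD301b macrophages and 82.2 FPKM in F4/80-negative cells, and Hadha, of mitochondrial fatty acid oxidation, was 41.8 FPKM in CD301b macrophages and 27.4 FPKM in F4/80-negative cells. Fabp4, a fatty acid carrier, was lower at 81.1 against 128 FPKM. The abundant members Ucp2 (690 against 490 FPKM), Plin2 (620 against 499 FPKM) and Fabp5 (395 against 278 FPKM) were not past the threshold.

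Of 17 glucocorticoid receptor target genes, 3 were higher (17.6%, beside 11.0% of all genes tested), 4 were lower (23.5%, beside 6.20%) and 10 were not called, with a median log2 fold of -0.19. The haemoglobin scavenger receptor Cd163 was 34.9 FPKM in CD301b macrophages and 7.13 FPKM in F4/80-negative cells, and the formyl peptide receptor Fpr1 was 42.0 against 22.4 FPKM. Dusp1, given above, was the third. Cd163 is also one of the 14 macrophage markers, all of which were higher, and their part in its difference was not tested. The interleukin 1 decoy receptor Il1r2 (99.3 against 249 FPKM), Tsc22d1 (35.3 against 71.1 FPKM) and the metallothionein Mt2 (103 against 182 FPKM) were lower. The 2 targets most used as readouts of the receptor were not past the threshold: Tsc22d3, which encodes GILZ, was 97.0 FPKM in CD301b macrophages and 93.0 FPKM in F4/80-negative cells, and Fkbp5 was 6.92 FPKM in CD301b macrophages and 8.91 FPKM in F4/80-negative cells. Anxa1 (322 against 460 FPKM), Nfkbia (222 against 236 FPKM) and Mt1 (206 against 176 FPKM) were likewise not past it.

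Enzymes and carriers that make, move or fold receptors and their ligands gave 2 higher (8.70%, beside 11.0% of all genes tested) and 3 lower (13%, beside 6.20%) of 23 tested. The median log2 fold was -0.13 over all 28 listed, of which 5 were not tested and lay near 0 on this scale. Dhrs3, which turns retinaldehyde back to retinol, was 150 FPKM in CD301b macrophages and 59.9 FPKM in F4/80-negative cells. Aldh1a2, which makes retinoic acid and is known from migratory dendritic cells, was 1.56 FPKM in CD301b macrophages and 5.44 FPKM in F4/80-negative cells, and the related Aldh1a3 was also lower, at 0.590 against 1.48 FPKM. Hpgds, a prostaglandin D synthase, was 24.8 FPKM in CD301b macrophages and 8.74 FPKM in F4/80-negative cells, and the lipoxygenase Alox15 was lower at 7.70 against 12.7 FPKM. Cyp27b1, which activates vitamin D, and Cyp24a1, which degrades it, were at most 0.107 FPKM in either population. The receptor chaperones Hsp90ab1 (497 against 552 FPKM), Hsp90aa1 (136 against 179 FPKM) and Ptges3 (88.9 against 79.1 FPKM) were not past the threshold. The 3 lower members, Aldh1a2, Aldh1a3 and Alox15, went in the same direction as the dendritic, mast cell, fibroblast, keratinocyte and endothelial markers. The part of cell makeup in their levels was not tested.

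**Figure D5:**
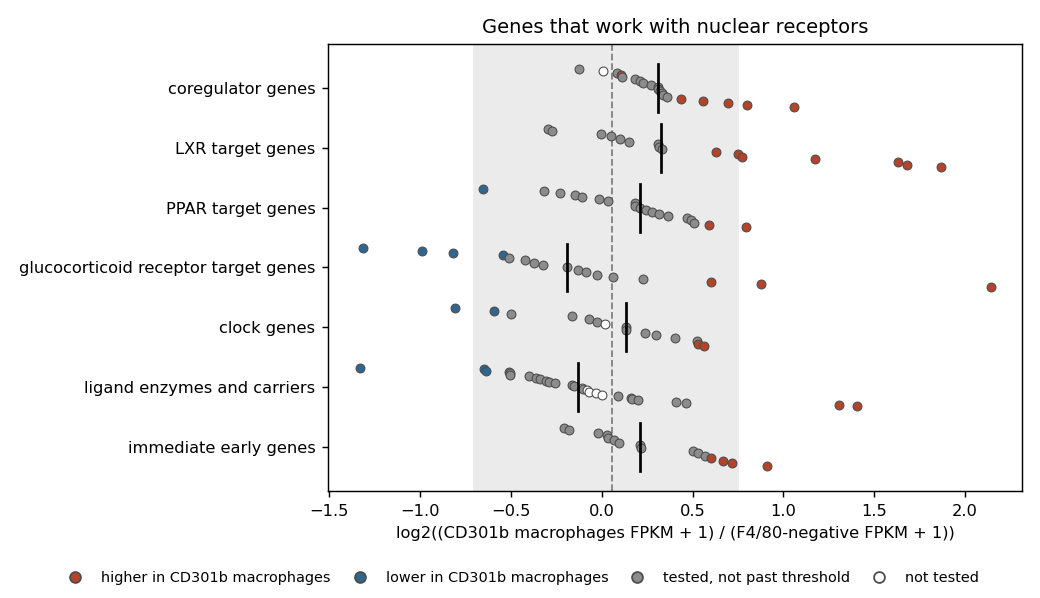
Log2 fold, on the log2(FPKM + 1) scale, of CD301b macrophages over F4/80-negative cells for 7 lists of genes that work with nuclear receptors, 1 point per gene. Black bars are list medians, the grey band holds the middle 90% of all genes tested and the dashed line is their median. The calls among coregulators, LXR targets and immediate early genes lie on the higher side, whereas those among PPAR targets, glucocorticoid receptor targets, clock genes and ligand enzymes fall on both sides.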

How the data were processed

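Sorted CD301b macrophages and F4/80-negative cells (2 libraries each) were profiled by Illumina TruSeq mRNA sequencing, per the labels' protocols. TopHat2 2.0.2 and Cuffdiff 2.0.2 are named in the submitters' processing notes, with the build mm9. For the combining of libraries and the strand setting, the sources used here give nothing. Per the file headers, the authors deposited 1 FPKM per transcript and population and an unadjusted p-value. Of the accessions, 97.1% were found among RefSeq genes of GRCm38.p6 and 99.2% of these overlapped the listed locus. For 17256 transcripts the listed start lay 1 base before the RefSeq gene start. The listed loci thus match GRCm38 and not the mm9 named in the notes. Coordinates are given from RefSeq on GRCm38, 1-based.

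Here the deposited p-values (smallest 5e-05) were Benjamini-Hochberg adjusted over 16921 transcripts with status OK, which matched all 2408 deposited calls. FPKM was summed by symbol. A gene was called when at least 1 transcript passed 0.05, none passed the other way and the sum went the same way. The adjusted p of a gene is the smallest of its transcripts. Log2 folds use a pseudocount of 1 FPKM. The deposited log2 fold, which holds spreadsheet errors, was not used. Symbols turned into dates (25) were restored by accession. FPKM gives no read counts, so depth is unknown.

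The members and lists were chosen with earlier results of these data known. Named were all members at 1 FPKM or more and, per list, up to 6 called genes at 5 FPKM or more with the largest folds and the 3 most abundant uncalled. Abcg1, Srebf1, Tsc22d3, Fkbp5, Aldh1a3, Cyp27b1 and Cyp24a1 were named beyond that rule after their values were seen. A gene that the rule names is not reported here. Promoters came from RefSeq (40 of 44 members matched), and zinc finger coding sequence from GENCODE, found by cysteine spacing in the longest reading frame (41 of 44). Python 3.11.15, pandas 2.3.3, numpy 2.4.6, scipy 1.17.1 and matplotlib 3.10.9 were used.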

Additional observations from a re-analysis of the deposited data

How the results depend on the processing

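With an adjusted p of at most 0.01 and with the most abundant transcript alone, the counts of higher and lower receptors stayed within 1.5 times of those reported. The settings of genes at 1 FPKM or more and of median scaling leave the deposited p-values as they are, and the called receptors all exceed 1 FPKM and have folds past the scaling shift, so these settings could not move the counts. Nr1h3 was the call lost at 0.01, with 3 receptors then higher. A Bonferroni threshold of 0.05 gave 0 higher and 0 lower receptors and could give no other result, since the smallest deposited p becomes 0.846. At an adjusted p of at most 0.01 the calls fell to 2 coregulators, 1 PPAR target, 2 clock genes and 2 immediate early genes. The family's median log2 fold was -0.0244 with a pseudocount of 0.1 FPKM, -0.00556 with 0.5 FPKM, -0.0109 over genes at 1 FPKM or more and -0.0125 with median scaling, which divides the CD301b values by 1.07 (a log2 shift of 0.10). Among the 24 receptors at 1 FPKM or more, the log2 fold changed sign for Nr1h2 under median scaling (-0.0867) and, with the most abundant transcript alone, for Rarb (0.0737) and Rora (0.0204), none of which was called. Leaving out a replicate could not be run because the table holds 1 value per population. No paired analysis was possible because the columns carry no replicate number. Unknown depth limits statements on receptors under 1 FPKM.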
